A study of Mus musculus with 12 samples.

Results

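The enzymes that lead from homocysteine to cysteine (transsulfuration) and from cysteine to glutathione, with those that recycle, spend and break down glutathione, were examined in fibroblasts whose methyl metabolism was disturbed. The 8 genes were chosen by name, with earlier results of these data known, so counts among them are descriptive. They were Cth and Cbs of transsulfuration, Gss of glutathione synthesis, and Gsr of its recycling. The others were Chac1 and Ggct of glutathione breakdown, and the glutathione peroxidase genes Gpx1 and Gpx4. Of the 8 genes, 6 had a row among the 12591 genes of the table. Cbs and Ggct had none and are not analysed here; the table keeps a gene where every sample reached 1 CPM, a count of reads scaled to a common library size. RNA came from confluent embryonic fibroblasts of PER2::LUC mice (strain label C57), which carry luciferase fused to the clock protein PER2. The study states that the mice were heterozygous for this knock-in, and it describes such fibroblasts in its clock recordings as immortalized. Each of the 4 groups had 3 replicate dishes. The treated groups received DZ at 10 μM, adenine at 1 mM or SAM at 1 mM for 24 h, and HCl at 3.3 mM was present in every group, the controls (CTL) among them. DZ (deazaneplanocin A) inhibits AHCY, the enzyme that splits S-adenosylhomocysteine into homocysteine and adenosine, and SAM (S-adenosylmethionine) is the methyl donor from which S-adenosylhomocysteine arises.

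Homocysteine stands where methyl metabolism and glutathione synthesis meet. CBS joins it to serine, and CTH cleaves the resulting cystathionine to cysteine, which cells also import as cystine through the SLC7A11 and SLC3A2 exchanger. Glutamate-cysteine ligase (GCLC and GCLM) and then glutathione synthetase (GSS) build the tripeptide, peroxidases oxidize it while reducing peroxides, and glutathione reductase (GSR) restores it with NADPH. CHAC1 cleaves reduced glutathione in the cytosol, and its gene, like Cth and Slc7a11, is a known target of the stress transcription factor ATF4.

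SAM lowered the message for the cysteine-forming enzyme and for the glutathione-cleaving enzyme far more than any other member. Cth fell to 11.2% of its CTL level and Chac1 to 17.2%, whereas Gsr rose to 170% and Gpx1 to 133%. Adenine shared the direction for Cth (49.4% of CTL), Gsr (134%) and Gpx1 (146%), but Chac1 stayed at 94.4% of CTL without passing the test. Under DZ the largest difference was a rise of Gss to 165%. In these bulk samples, fewer cells of a kind and less RNA per cell cannot be told apart.

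Differences are log2 fold changes with their standard errors (SE), estimated by limma in 1 model of the 12 libraries, and a gene was called at a Benjamini-Hochberg adjusted p under 0.01 over all 12591 genes. Large parts of the transcriptome passed this threshold. Against CTL, 3 of the 6 members were called under DZ, where 45.9% of all genes were. Under adenine 4 of 6 were called, against 61.6% of all genes, and under SAM 6 of 6, against 69.3%. Against CTL, the shares of members called were near the background under DZ and adenine. In the direct contrast of SAM with adenine, 5 of 6 members were called, against 42.7% of all genes.

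By direction, DZ raised 3 members (Gss, Gpx1 and Gpx4), where 22.6% of all genes were called higher and 23.4% lower. Adenine raised 2 (Gsr and Gpx1; background 30.6%) and lowered 2 (Cth and Gpx4; background 31.0%). SAM raised 2 (Gsr and Gpx1; background 33.7%) and lowered 4 (Cth, Gss, Chac1 and Gpx4; background 35.7%). Relative to adenine, SAM gave higher values for 2 (Gsr and Gpx4; background 20.8%) and lower values for 3 (Cth, Gss and Chac1; background 22.0%).

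**Figure D1:**
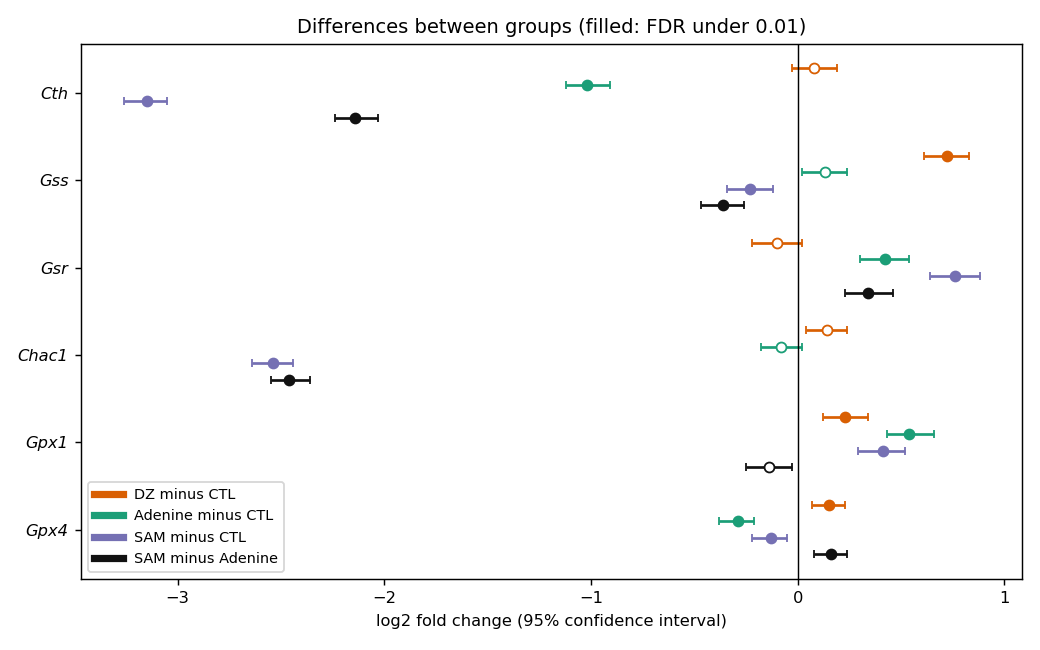
Log2 fold change of each member in 4 comparisons (x axis), with 95% confidence intervals as bars; filled points passed an FDR of 0.01 and open points did not. Cth and Chac1 lie far to the left under SAM, and Cth alone of the pair lies to the left of 0 under adenine with a filled point.

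The libraries held between 45649534 and 56789090 reads on the listed genes. Replicates within a group differed by more than counting noise, and SAM replicate 3 stood apart: its chi-square per degree of freedom against SAM replicates 1 and 2 was 19.06 and 15.74, where all other replicate pairs had 4.76 to 7.07. Values for the members under SAM are therefore also given without it. Over the 152 other genes of the lists described further on, leaving it out changed 4 calls against CTL, where Mpst (0.17, adjusted p = 0.0110) and Gstp1 (0.12, adjusted p = 0.0131) were lost and Txnrd1 (−0.08) and Taldo1 (−0.16) were gained, and it changed 11 calls between SAM and adenine. No call kept in both fits changed sign, and none of these genes moved by more than 0.20 on the log2 scale. Nothing in the labels says that the dishes came from separate cultures, so the p-values measure the spread between these dishes. Of 12 fibroblast markers, 10 had a row (Dcn and Lum had none), and their summed level was 23900 to 24400 CPM in CTL, 30400 to 31100 in DZ, 27700 to 30200 in adenine and 19800 to 21100 in SAM. Of these markers SAM raised 9 and lowered 1, Fn1 (fibronectin), by 1.58 on the log2 scale. Of 10 leukocyte, 8 endothelial and 8 epithelial markers, only the leukocyte gene Cd68 and the endothelial gene Egfl7 had a row. Cd68, a lysosomal protein gene, lay between 2.73 and 4.0 CPM in CTL and DZ, 10.8 and 12.3 in adenine, and 15.6 and 17.7 in SAM. Egfl7 lay between 5.06 and 5.21 CPM in CTL, 3.48 and 4.66 in DZ, 5.67 and 6.98 in adenine, and 7.99 and 8.42 in SAM, where it was called higher (0.69, adjusted p = 4.18e-05). The part of these markers in the results was not tested.

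Levels of different genes were compared as CPM per kb of the canonical transcript. In CTL, Gpx4 led with 388 ± 20.1 (SD, n = 3) CPM per kb, followed by Gpx1 (101 ± 3.43), Cth (87.2 ± 1.82), Chac1 (66.7 ± 2.96), Gss (14.3 ± 0.435) and Gsr (11.4 ± 0.809). The mRNA of both peroxidases thus stood well above that of the enzyme that makes glutathione and of the one that recycles it. Under SAM, Cth went from the third place of the 6 to the last, with 9.83 ± 0.929 CPM per kb, and Gsr from the last to the third, with 19.3 ± 0.12.

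**Figure D2:**
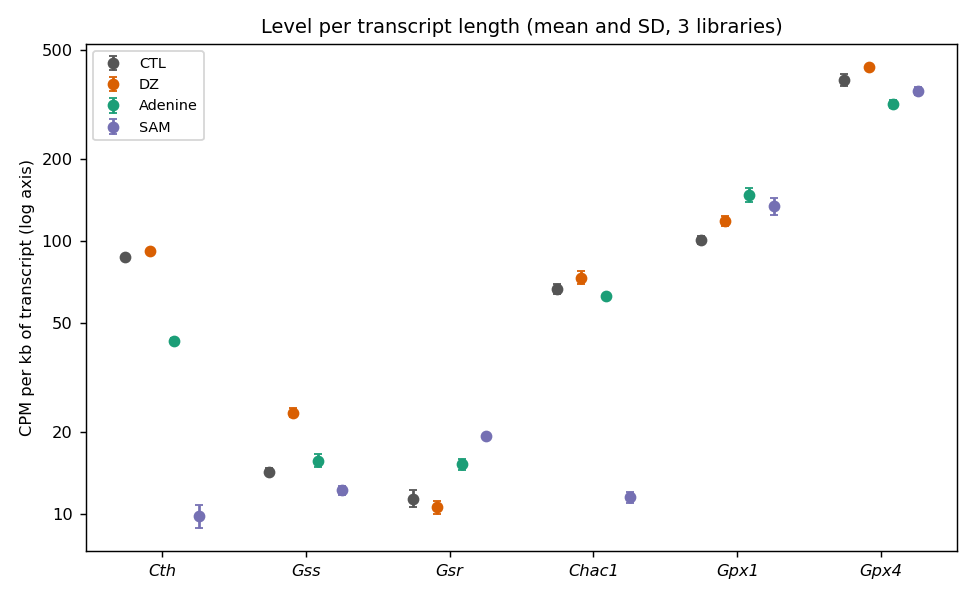
Level of each member in CPM per kb of transcript (log axis), as the mean and SD of 3 libraries in each group. Under SAM, Cth and Chac1 drop from near 87.2 and 66.7 to 9.83 and 11.5 CPM per kb, around the levels of Gss and Gsr.

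Cth (ENSMUSG00000028179; GRCm39, chr3:157599868-157630739, minus strand) encodes cystathionine gamma-lyase, which forms cysteine and can also release hydrogen sulfide. Its levels were 7.29, 7.29 and 7.34 log2 CPM in CTL and 7.40, 7.40 and 7.37 in DZ. They were 6.27, 6.27 and 6.33 in adenine and 4.08, 4.08 and 4.31 in SAM. The adenine dishes lay below all CTL dishes and the SAM dishes below all adenine dishes, with SAM replicate 3 the highest of its group. The fold change under SAM was −3.15 (SE 0.050, adjusted p = 1.31e-16), the 13th lowest of all 12591 genes, and it was −3.23 without SAM replicate 3. Adenine gave −1.02 (SE 0.050, adjusted p = 5.76e-11), the 520th lowest. DZ gave 0.08 with a 95% interval of −0.03 to 0.19 (adjusted p = 0.188), although its 3 dishes lay above the CTL dishes. In reads, the SAM libraries held 962 to 1003 for Cth and the CTL libraries 6930 to 7494.

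Chac1 (ENSMUSG00000027313; GRCm39, chr2:119180757-119184866, plus strand) encodes the cyclotransferase that cuts glutathione into 5-oxoproline and cysteinylglycine. Its levels were 6.84, 6.72 and 6.82 log2 CPM in CTL, and 6.84, 6.93 and 7.01 in DZ. They were 6.71, 6.71 and 6.71 in adenine, and 4.27, 4.31 and 4.18 in SAM. The SAM dishes stood more than 2 log2 units below every other dish, while the 9 other dishes lay within 6.71 to 7.01. The change under SAM was −2.54 (SE 0.046, adjusted p = 5.43e-16), or −2.50 without SAM replicate 3. Under adenine it was −0.08 (95% interval −0.18 to 0.02, adjusted p = 0.125) and under DZ 0.14 (0.04 to 0.24, adjusted p = 0.0202). The DZ value passed the threshold with plain read totals as library sizes (0.16, adjusted p = 0.00723) and without DZ replicate 1 (0.18, adjusted p = 0.00579).

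The 250 bases upstream of the canonical transcript starts of Cth and Chac1 are shown because these members fell together under SAM. They were read from the GRCm39 genome at chr3:157630720-157630969 (minus strand) and chr2:119181439-119181688 (plus strand), 5′ to 3′, and the Chac1 window lies inside the annotated span of the gene, which begins further upstream. Capitals mark a match to the palindromic E-box CACGTG in Cth and to the ATF4-C/EBP composite element TGATGNAA, read on the opposite strand, in Chac1.
Cth: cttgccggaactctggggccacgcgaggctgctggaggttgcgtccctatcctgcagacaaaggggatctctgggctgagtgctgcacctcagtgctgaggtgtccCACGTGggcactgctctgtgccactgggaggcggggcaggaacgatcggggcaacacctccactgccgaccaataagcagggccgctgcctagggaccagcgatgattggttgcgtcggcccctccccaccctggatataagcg
Chac1: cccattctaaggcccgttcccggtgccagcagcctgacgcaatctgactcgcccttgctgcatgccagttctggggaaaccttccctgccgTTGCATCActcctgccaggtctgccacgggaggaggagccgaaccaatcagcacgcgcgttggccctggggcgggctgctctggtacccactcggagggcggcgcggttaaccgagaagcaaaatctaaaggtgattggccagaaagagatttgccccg
Both strands were searched. The windows of Gss, Gsr and Gpx4 also lie inside the annotated spans of their genes, and those of Cth and Gpx1 overlap theirs in part. TGATGNAA, starting 159 bases upstream in Chac1, was found in 222 of 10948 such windows of protein-coding genes (2.03%) and in none of the other 5 members. CACGTG, starting 144 bases upstream in Cth, was in 884 windows (8.07%) and in none of the other 5. The GC box GGGCGG (51.6% of windows) occurred in Chac1, 91 and 63 bases upstream, and in Gpx4, 40 bases upstream. The core of the antioxidant response element, TGACNNNGC (10.6% of windows), and the cAMP response element TGACGTCA (2.16%) were in none of the 6 windows. The letters of the E-box and the composite element did not overlap another searched motif, and a match or its absence in these windows says nothing of binding.

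Gss (ENSMUSG00000027610; GRCm39, chr2:155405096-155455505, minus strand), which encodes glutathione synthetase, was the member that DZ moved most. Its levels were 4.78, 4.80 and 4.86 log2 CPM in CTL, and 5.47, 5.57 and 5.56 in DZ. They were 4.97, 5.01 and 4.86 in adenine, and 4.53, 4.57 and 4.64 in SAM. All DZ dishes lay above, and all SAM dishes below, every CTL dish, and the adenine dishes overlapped CTL. The difference was 0.72 under DZ (SE 0.051, adjusted p = 1.73e-08), the 295th highest of all genes, and −0.23 under SAM (SE 0.051, adjusted p = 0.000684), or −0.26 without SAM replicate 3. The SAM difference was −0.11 (adjusted p = 0.0599) with plain read totals, under which the median of all genes moved from −0.015 to 0.107. Adenine gave 0.13 (95% interval 0.02 to 0.24, adjusted p = 0.0296), and this passed with plain read totals (0.19, adjusted p = 0.00293) and without adenine replicate 3 (0.18, adjusted p = 0.00927).
The gene overlaps Acss2 on the other strand, and the other annotated genes that overlap it have no row. The methods of the study describe strand-specific libraries. The use of strand in the counting is not stated, so reads of Gss and Acss2 may be mixed. Acss2 had 0.63, 0.94, 1.43 and 2.49 log2 CPM on average in CTL, DZ, adenine and SAM, and its part in the Gss values was not tested.

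Gsr (ENSMUSG00000031584; GRCm39, chr8:34142551-34188192, plus strand), the glutathione reductase gene, rose stepwise from CTL through adenine to SAM. Its levels were 5.0, 4.81 and 4.97 log2 CPM in CTL, and 4.76, 4.91 and 4.81 in DZ. They were 5.40, 5.27 and 5.36 in adenine, and 5.68, 5.70 and 5.69 in SAM. The CTL and DZ dishes overlapped, and the adenine and SAM dishes formed 2 separate bands above them. The changes were 0.76 under SAM (SE 0.055, adjusted p = 4.11e-09) and 0.42 under adenine (SE 0.055, adjusted p = 5.88e-06). The SAM value was 0.76 without SAM replicate 3 as well. DZ gave −0.10 (95% interval −0.22 to 0.02, adjusted p = 0.137).

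**Figure D3:**
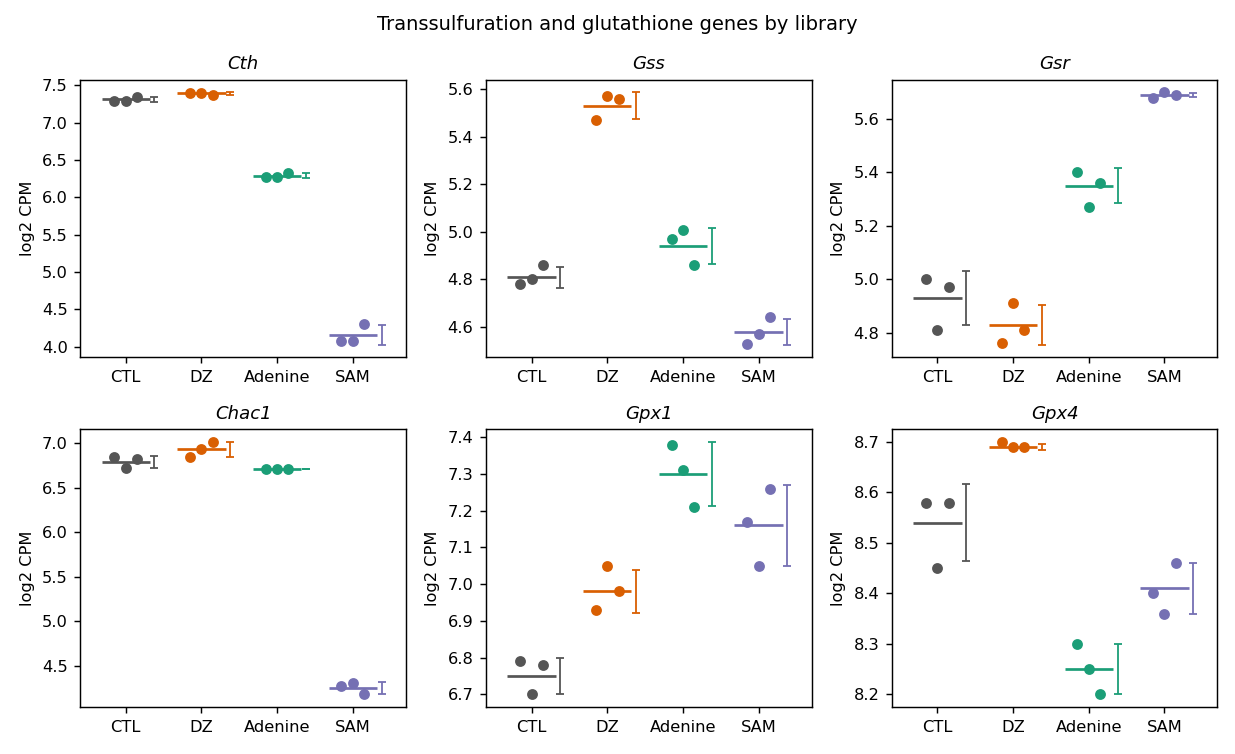
Level of each member (log2 CPM) in every library, with 3 points, a line for the mean and an SD bar per group; each panel has its own y axis, which does not start at 0. SAM sits apart at the bottom for Cth and Chac1 and at the top for Gsr, DZ at the top for Gss, and the spans for Gpx1 and Gpx4 are under 1 log2 unit.

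Gpx1 and Gpx4 encode selenoproteins: their catalytic residue is selenocysteine, written in the message as a stop codon, whereas the related peroxidases GPX7 and GPX8 of the endoplasmic reticulum use cysteine. The 27 bases around this codon (in capitals), from the canonical coding sequences, show the difference. Gpx7 and Gpx8 are given because they are the other peroxidase genes of the family with a row.
Gpx1: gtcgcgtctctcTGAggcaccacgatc
Gpx4: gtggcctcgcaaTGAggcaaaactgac
Gpx7: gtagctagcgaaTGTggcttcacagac
Gpx8: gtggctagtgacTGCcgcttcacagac
The codon is number 47 in Gpx1 (chr9:108216650-108216652), 73 in Gpx4 (chr10:79890571-79890573), 56 in Gpx7 and 79 in Gpx8, and GENCODE annotates the TGA of the first pair as selenocysteine.

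Gpx1 (ENSMUSG00000063856; GRCm39, chr9:108216102-108217546, plus strand), whose product reduces hydrogen peroxide, was higher than CTL under every treatment. Its levels were 6.79, 6.70 and 6.78 log2 CPM in CTL, and 6.93, 7.05 and 6.98 in DZ. They were 7.38, 7.31 and 7.21 in adenine, and 7.17, 7.05 and 7.26 in SAM. No treated dish reached down to the CTL range. It rose by 0.54 with adenine (SE 0.053, adjusted p = 1.86e-07) and by 0.41 with SAM (adjusted p = 3.88e-06), or by 0.36 without SAM replicate 3. The rise under DZ was 0.23 (adjusted p = 0.00165). The DZ call was lost without CTL replicate 2 (0.20, adjusted p = 0.0102) or DZ replicate 2 (0.20, adjusted p = 0.0107).

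Gpx4 (ENSMUSG00000075706; GRCm39, chr10:79883000-79892273, plus strand), whose product reduces phospholipid hydroperoxides and protects cells from ferroptosis, had small differences of both signs. Its levels were 8.58, 8.45 and 8.58 log2 CPM in CTL, and 8.70, 8.69 and 8.69 in DZ. They were 8.30, 8.25 and 8.20 in adenine, and 8.40, 8.36 and 8.46 in SAM. The adenine dishes lay below and the DZ dishes above all CTL dishes, and SAM overlapped CTL. Adenine gave −0.29 (SE 0.038, adjusted p = 4.96e-06), a fall that was called in every refit. SAM gave −0.13 (adjusted p = 0.00480) and −0.16 without SAM replicate 3, but the value was 0.08 after quantile normalization (adjusted p = 0.0842) and −0.01 with plain read totals (adjusted p = 0.785), and the call was also lost without CTL replicate 1 or 3 and without SAM replicate 1 or 2 (−0.13 to −0.11). DZ gave 0.15 (adjusted p = 0.00327), and this call was lost without CTL replicate 2 (0.11) or without any of the DZ dishes (0.15). Gpx4 may share reads with its processed pseudogene Gpx4-ps2, which is listed separately at 7.14, 7.28, 6.91 and 7.07 log2 CPM on average in CTL, DZ, adenine and SAM, so its values are uncertain to that extent.

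SAM raised both cysteine peroxidase genes. Gpx7 had 1.72, 1.69 and 1.89 log2 CPM in CTL, 1.97, 2.42 and 2.29 in DZ, 2.72, 2.43 and 2.73 in adenine, and 3.38, 3.40 and 3.55 in SAM. No SAM dish overlapped another group. It rose by 1.68 under SAM (adjusted p = 3.74e-09), and its rises under adenine and DZ were 0.86 (adjusted p = 1.13e-05) and 0.46 (adjusted p = 0.00415). Gpx8 had 6.05, 6.15 and 6.23 log2 CPM in CTL, 6.21, 6.15 and 6.14 in DZ, 6.38, 6.39 and 6.37 in adenine, and 6.69, 6.63 and 6.77 in SAM. It rose by 0.55 with SAM (adjusted p = 1.71e-08) and by 0.24 with adenine (adjusted p = 0.000223), and its DZ value was 0.02 (adjusted p = 0.669). The difference between the 2 kinds of peroxidase was not tested.

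**Figure D4:**
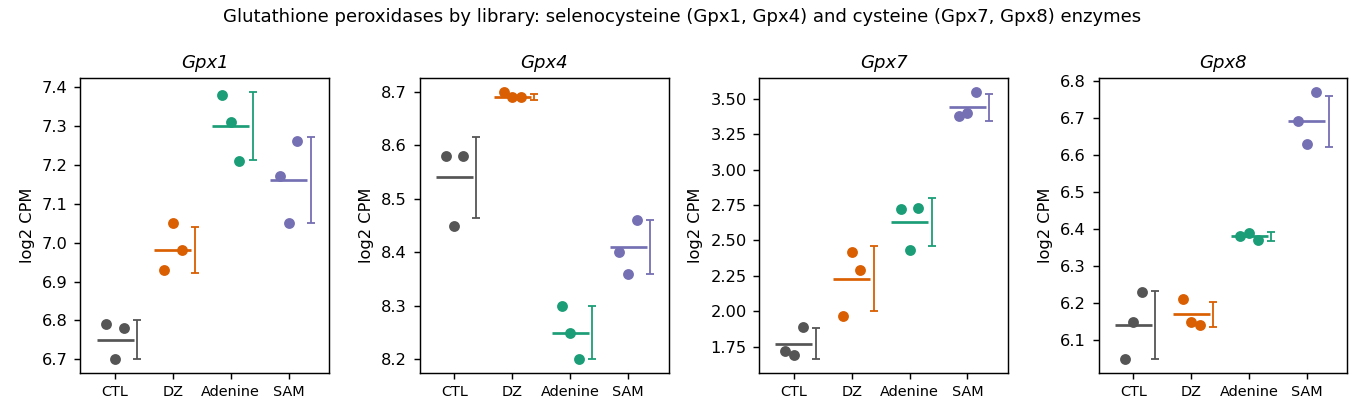
Levels (log2 CPM) of 4 glutathione peroxidase genes in every library, with the mean and SD of each group; y axes differ between panels and do not start at 0. SAM is the highest group for Gpx7 and Gpx8, adenine for Gpx1 and DZ for Gpx4.

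SAM and adenine were given at the same dose (1 mM) and time (24 h), so that they could be compared directly. Chac1 was 2.46 lower on the log2 scale in SAM than in adenine (95% interval of the difference −2.55 to −2.36, adjusted p = 3.37e-15), the 6th lowest of all genes in this contrast. Cth differed by −2.14 (−2.24 to −2.03, adjusted p = 4.97e-14), the 13th lowest, and by −2.21 without SAM replicate 3. Both genes thus had much less message in SAM than in adenine, although of these genes only Cth passed the test for adenine against CTL. Gss differed by −0.36 (adjusted p = 2.54e-05), Gsr by 0.34 (adjusted p = 9.18e-05) and Gpx4 by 0.16 (adjusted p = 0.00247). Without SAM replicate 3, Chac1 differed by −2.42, Gss by −0.39, Gsr by 0.34 and Gpx4 by 0.13, and all of these were called. The Gpx4 call was lost without adenine replicate 3 (0.13, adjusted p = 0.0160). Gpx1 differed by −0.14 (−0.25 to −0.03, adjusted p = 0.0367), and it passed without SAM replicate 3 (−0.19, adjusted p = 0.00588). DZ was used at 10 μM and its values stand beside the others only as measured.

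Ordered from low to high, Cth and Chac1 both ran SAM, adenine, CTL, DZ. For Cth the CTL and DZ pair did not pass the threshold, although the dishes did not overlap. For Chac1 the adenine dishes lay below the CTL dishes and the DZ dishes above them, and neither pair passed. The lowest DZ and the highest CTL dish of Chac1 both rounded to 6.84 log2 CPM. Gss ran SAM, CTL, adenine, DZ, where the middle pair did not pass and adenine and DZ differed by 0.59 (adjusted p = 5.13e-08; 64.3% of all genes were called between these groups). Gsr ran DZ, CTL, adenine, SAM, and its lowest pair did not pass. Gpx1 ran CTL, DZ, SAM, adenine, with DZ and SAM 0.18 apart (adjusted p = 0.00695; 69.0% of all genes were called between these groups) and the highest pair not passing. Gpx4 ran adenine, SAM, CTL, DZ with every step passing, subject to the lost calls given above.

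The lists of surrounding genes were read by their counts and medians beside those of all genes, whose median change was −0.006 under DZ, −0.003 under adenine and −0.015 under SAM. Of all genes, DZ raised 22.6% and lowered 23.4%, adenine 30.6% and 31.0%, and SAM 33.7% and 35.7%. A list called in both directions near these shares does not stand out from the background. The lists, like the members, were chosen with earlier results of these data known, so their counts describe and carry no test. On the supply side (6 of 8 genes with a row), SAM lowered 4 and raised 1, with a median of −1.16. Slc7a11, the cystine exchanger, went from 6.31, 6.40 and 6.27 log2 CPM in CTL to 3.30, 3.38 and 3.25 in SAM, a change of −3.02 (adjusted p = 4.24e-16). Adenine gave −0.16 (adjusted p = 0.0160) and DZ −0.08 (adjusted p = 0.206), neither of which passed. Slc1a5, a neutral amino acid transporter, was lowered by all 3 treatments (−0.42 with DZ, −1.11 with adenine and −2.42 with SAM). Slc3a2, the partner chain of SLC7A11, rose under DZ (0.38) and fell under adenine (−0.14, or −0.08 and not called with plain read totals) and SAM (−0.94). Slc1a4, a transporter of alanine, serine and cysteine, fell under SAM alone of the 3 contrasts with CTL (−1.38).

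The ligase genes did not fall under SAM. Gclm, the modifier subunit of glutamate-cysteine ligase, was the gene of this list that SAM raised, from 6.51, 6.54 and 6.63 log2 CPM in CTL to 7.22, 7.18 and 7.31 (0.68, adjusted p = 2.84e-10). It also rose under adenine (0.31) and DZ (0.14). Gclc, the catalytic subunit, fell under adenine (−0.39, adjusted p = 2.89e-07) and had 0.08 under SAM (adjusted p = 0.0836), a value that was called with plain read totals (0.20, adjusted p = 0.000204).

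ATF4 and its target genes had 25 of 26 genes with a row. SAM lowered 23 of the 25, with a median of −1.74, and the other two had −0.13 (Ddit4, adjusted p = 0.0123) and −0.24 (Cebpb, adjusted p = 0.0133). The list shares Slc7a11 and Slc3a2 with the supply list, Slc7a11 also with the ferroptosis list below and Aldh1l2 with the NADPH list below. It does not hold Cth or Chac1. Trib3, a pseudokinase induced by this stress response, fell by 4.05, Vldlr, a lipoprotein receptor, changed by −2.77 and Atf4 itself by −1.07. Adenine lowered 18, among them Trib3 (−1.25) and Atf3 (−1.63), and raised 1, Ddit4 (0.29), with a median of −0.38. With plain read totals adenine lowered 16 and raised 4, with a median of −0.32. DZ raised 12, among them the amino acid transporter gene Slc7a5 (0.52), and lowered 3 (Atf5 by −0.65, Ddit4 by −0.24 and Trib3 by −0.13), with a median of 0.09.

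**Figure D5:**
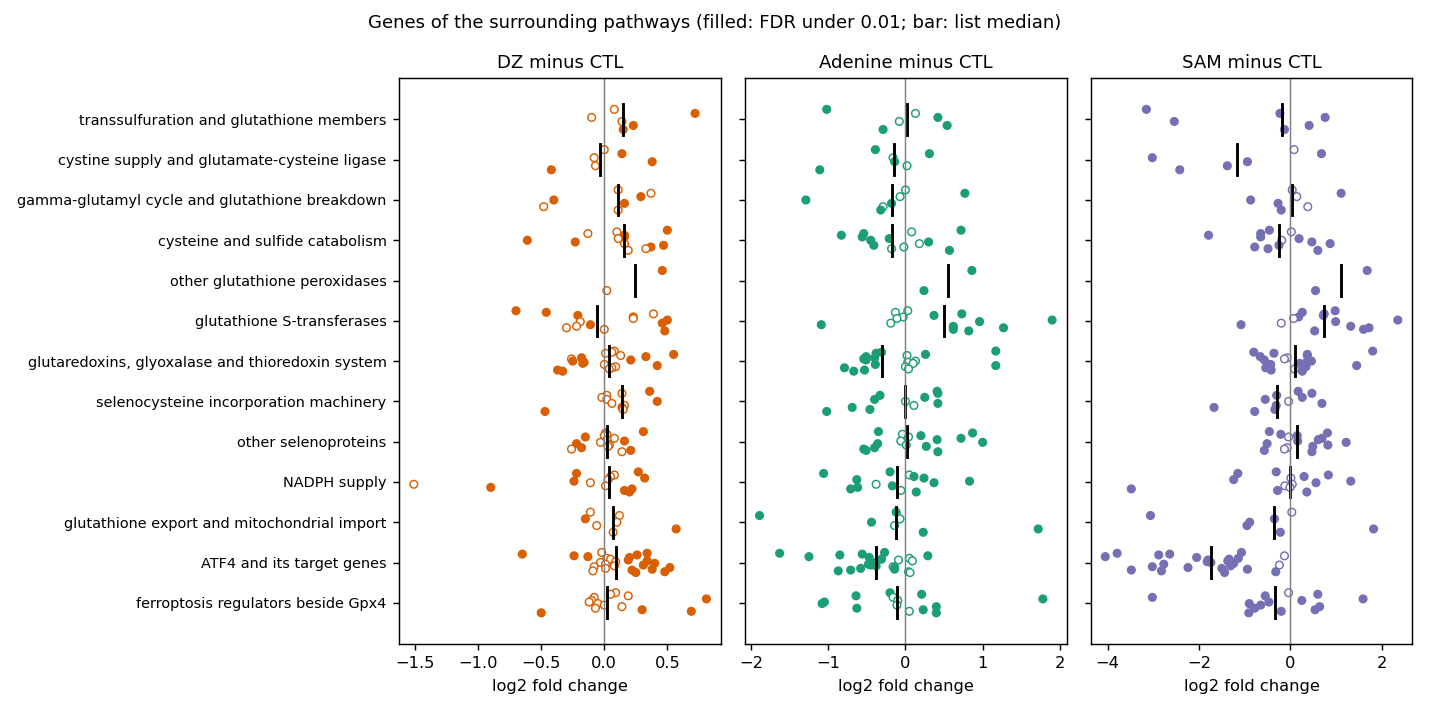
Log2 fold change against CTL of each gene in 13 lists under DZ, adenine and SAM (x axes differ between panels), with filled points for an FDR under 0.01 and a bar at the median of the list. Under SAM the ATF4 list has its median at −1.74 and the cystine supply list at −1.16, while the glutathione S-transferases lie mostly to the right, with a median of 0.73.

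Among the measured genes for enzymes that conjugate glutathione to other molecules, adenine and SAM raised more than they lowered. Of 29 glutathione S-transferases and related genes, 14 had a row. SAM raised 11 and lowered 1 (median 0.73), and adenine raised 8 and lowered 1 (median 0.49). Gstt1, of the theta class, rose by 2.35 with SAM and by 1.90 with adenine. The gene that fell in both was Gsto1, of the omega class (−1.08 and −1.09). Some of the genes raised by both had low levels, with CTL means of 0.86 (Ptges), 1.0 (Gstm4) and 1.21 log2 CPM (Mgst3). DZ raised Gstp1, Gstt1, Gstz1 and Gstcd (0.23 to 0.50) and lowered Gstm1 (−0.70), Gstm2 (−0.46), Gstm5 (−0.21) and Gsto1 (−0.11, not called with plain read totals). Genes of the mu and pi classes are close paralogs, among which reads may have been shared.

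The thioredoxin, glutaredoxin and glyoxalase genes (19 of 19 with a row) back up or use glutathione. Their median changes were 0.04 with DZ, −0.31 with adenine and 0.09 with SAM. SAM raised 9 and lowered 7, and adenine raised 3 (Glrx, Glrx5 and Prdx4) and lowered 10. DZ raised 4 (Glrx5, Txn2, Txnrd3 and Prdx4) and lowered 6. Prdx4, a peroxiredoxin of the endoplasmic reticulum, rose in all 3 contrasts (0.42 with DZ, 1.17 with adenine and 1.45 with SAM), and Glrx, a glutaredoxin, rose by 1.80 with SAM. Prdx6, which uses glutathione as its reductant, fell by 0.79 with adenine.

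NADPH, the reductant of GSR, is supplied by several routes (14 of 15 genes with a row). This list had medians of 0.04 with DZ, −0.12 with adenine and 0.0 with SAM, and its counts under SAM were near the shares of all genes. SAM raised 5 (Pgd, Me1, Idh1, Idh2 and Nadk2) and lowered 5 (G6pdx, Pgls, Me3, Aldh1l2 and Nadk). Adenine raised 5 (Me1, Me2, Idh1, Idh2 and Nadk2) and lowered 6. DZ raised 5 (G6pdx, Me2, Aldh1l2, Nadk and Nadk2) and lowered 3 (Pgls, Idh1 and Tkt). The largest of these changes was that of Aldh1l2, a mitochondrial folate enzyme that yields NADPH, which fell by 3.48 with SAM. Pgls, of the pentose phosphate pathway, changed by −1.06 with adenine and −1.15 with SAM. Tkt, transketolase, changed by −0.90 with DZ and −0.62 with adenine, and it had −0.01 with SAM.

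Of the genes that make selenocysteine and place it into GPX1 and GPX4 (11 of 11 with a row), SAM raised 4 (Sephs1, Sephs2, Secisbp2l and Pstk) and lowered 6. Adenine raised 4 (Sephs1, Sephs2, Secisbp2l and Pstk) and lowered 5 (Secisbp2, Sepsecs, Sars1, Scly and Rpl30), and DZ raised 3 (Sephs1, Eefsec and Sars1) and lowered 1 (Rpl30). Sars1, the seryl-tRNA synthetase that also charges the selenocysteine tRNA, changed by −1.67 with SAM and −0.69 with adenine. Rpl30, a ribosomal protein, fell in all 3 contrasts (−0.47 with DZ, −1.02 with adenine and −0.78 with SAM). Medians of this list were 0.14 with DZ, 0.0 with adenine and −0.3 with SAM.

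Among the 16 of 22 other selenoprotein genes with a row, SAM raised 9 and lowered 4 (Selenow, Selenot, Selenoi and Txnrd3). Adenine raised 7 and lowered 5 (Selenow, Selenoi, Txnrd1, Txnrd2 and Txnrd3), and DZ raised 3 (Selenow, Selenon and Txnrd3) and lowered 3 (Selenok, Selenoi and Txnrd1). Txnrd1, Txnrd2 and Txnrd3 were already counted in the thioredoxin list, and Sephs2 among the selenocysteine genes. Selenoh rose by 1.22 and Selenop, the secreted selenium carrier, by 0.81 with SAM, and Selenow rose by 0.31 with DZ. As a list these genes had medians of 0.02 with DZ, 0.03 with adenine and 0.16 with SAM.

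Around the breakdown of glutathione (7 of 13 genes with a row), adenine and SAM each raised Ggt7 (0.77 and 1.11) and lowered Oplah, Lap3 and Cndp2. DZ raised Ggact (0.29) and Lap3 (0.16) and lowered Oplah (−0.40). Oplah, which opens the 5-oxoproline that CHAC1 releases, changed by −1.29 with adenine and −0.87 with SAM. Chac2, the paralog of Chac1, had 2.15 log2 CPM in CTL on average and differences of 0.11, 0.00 and 0.04 with DZ, adenine and SAM, none of which was called. The 7 genes had medians of 0.11 with DZ, −0.18 with adenine and 0.04 with SAM.

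In cysteine and sulfide catabolism (13 of 15 genes with a row), SAM raised 4 (Mpst, Sqor, Ethe1 and Tstd3) and lowered 7. Adenine raised 3 (Csad, Sqor and Tstd3) and lowered 6, and DZ raised 5 (Csad, Got1, Got2, Suox and Kyat1) and lowered 2 (Tst and Sqor). Sqor and Ethe1, which act in the mitochondrial pathway of hydrogen sulfide oxidation, had 0.47 and 0.87 with SAM. Got1, a transaminase that also accepts cysteine sulfinate, changed by −0.83 with adenine and −1.79 with SAM. Over the 13 genes the medians were 0.16 with DZ, −0.18 with adenine and −0.25 with SAM.

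Of the genes for transport of glutathione out of the cell and into mitochondria (7 of 9 with a row), SAM raised 1 (Slc25a10) and lowered 5 (Abcc4, Abcc5, Slc25a39, Slc25a40 and Slc25a11). Adenine raised 2 (Slc25a10 and Slc25a11) and lowered 3 (Abcc1, Abcc4 and Slc25a39), and DZ raised 1 (Slc25a10) and lowered 1 (Abcc5). Abcc4, an exporter, changed by −1.89 with adenine and −3.06 with SAM. Slc25a39, the mitochondrial importer of glutathione, fell by 0.89 with SAM, and Slc25a10, a dicarboxylate carrier, rose by 1.82. Together the 7 transport genes had medians of 0.07 with DZ, −0.12 with adenine and −0.35 with SAM.

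Of the ferroptosis regulators other than Gpx4 (14 of 17 with a row), SAM raised 5 (Lpcat3, Tfrc, Fth1, Keap1 and Dhodh) and lowered 8. Adenine raised 5 (Lpcat3, Tfrc, Keap1, Dhodh and Slc40a1) and lowered 5 (Acsl4, Aifm2, Ftl1, Hmox1 and Ncoa4), and DZ raised 3 (Tfrc, Dhodh and Ptgs2) and lowered 1 (Slc40a1). Tfrc, the transferrin receptor, rose in all 3 contrasts (0.81 with DZ, 1.78 with adenine and 1.59 with SAM), and Hmox1, heme oxygenase, fell by 1.08 with adenine. Across these regulators the medians were 0.03 with DZ, −0.1 with adenine and −0.34 with SAM.

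With plain read totals, 61.2% of the calls under SAM were higher, against 48.5% with the deposited scaling, and in SAM against adenine 63.2% against 48.6%. The counts for the ATF4 list under SAM were the same with these totals (23 lower), as were those for the S-transferases (11 higher and 1 lower), whereas the members lowered by SAM went from 4 to 2 and those raised stayed at 2. Of the 152 genes of the lists, these totals took away 3 calls and added 7 with DZ, took away 5 and added 9 with adenine, and took away 8 and added 6 with SAM. The calls lost were Gsto1, Idh1 and Trib3 with DZ. Those lost with adenine were Slc3a2, Mpst, Taldo1, Abcc1 and Slc7a5, and those lost with SAM were Cndp2, Suox, Kyat3, Secisbp2, Scly, Selenot, Slc25a11 and Ptgs2. The calls gained were Ggt7, Prdx5, Trnau1ap, Slc25a39, Cebpg, Acsl4 and Keap1 with DZ, and Ado, Srxn1, Prdx2, Trnau1ap, Pgd, Psat1, Shmt2, Pck2 and Thy1 with adenine. With SAM they were Gclc, Ggact, Ado, Glo1, Tkt (0.11, adjusted p = 0.000842) and Abcc1 (0.15, adjusted p = 0.00111).

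The genes whose log2 CPM was most like that of each member were sought among the 10319 genes whose mean reached 3 log2 CPM, by Pearson's r over the 12 libraries. These values mostly reflect the 4 groups that the libraries share and carry no test. For Cth they were Acot2 (0.999), Ddit3 (0.998) and Gpt2 (0.998), and for Chac1 they were Psph (0.996), Slit2 (0.996) and Slc7a11 (0.995). Ddit3 encodes the stress transcription factor CHOP, and Psph the last enzyme of serine synthesis. For Gss they were Fbln2 (0.988), Mrpl17 (0.985) and Ubl4a (0.984), for Gsr Dcaf15 (0.993), Rhno1 (0.992) and Rhbdf1 (0.991), for Gpx1 Amacr (0.985), Dusp5 (0.974) and Junb (0.972), and for Gpx4 Polr2c (0.992), Bbln (0.992) and Mrpl4 (0.986).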

How the data were processed

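RNA of 12 libraries (3 dishes in each of 4 groups) was sequenced, and groups and replicate numbers were taken from the sample labels. The authors ran Trimmomatic, HISAT2 (GRCm39, guided by GENCODE vM27) and StringTie, dropped genes under 1 CPM in any sample and normalized with edgeR. Versions and the scaling method are not given in the sources used here. The deposited table gives, for 12591 genes, log2 CPM relative to normalized library sizes (prior count 2). Whole reads were recovered from these values: 100% were whole within 0.05 of a read, and no gene had fewer than 46. StringTie reads are estimates from coverage.

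The log2 values were tested with limma 3.58.1 in R 4.3.3 (lmFit, contrasts, eBayes with a variance trend; 1 model of 12 libraries), adjusted by Benjamini-Hochberg over all genes and called at an FDR of 0.01, after a test on simulated data. Tables and plots were made with Python 3.11.15, numpy 2.4.6, pandas 2.3.3 and matplotlib 3.10.9. Positions, transcripts and lengths are those of GENCODE vM39, with 12575 of 12591 identifiers matched, and sequences were read from the GRCm39 genome.

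The members and lists were chosen with earlier results of these data known. Named are the members; of each list, up to 2 called genes with the smallest adjusted p under each treatment, some of which are left out; the 3 genes most correlated with each member; and genes of counts up to 5. Atf4, Chac2, Ddit4, Cebpb, Acss2, Gpx4-ps2 and Nnt were named in addition, with their values known. Genes whose calls against CTL changed with plain read totals were also named, in counts above 5 as well. Alternatives were robust empirical Bayes, no variance trend, a mean of at least 3 log2 CPM, median centring, quantile normalization, log2(CPM + 1), an FDR of 0.05, a log2 fold change of at least 0.5, a model of the 2 groups alone, a replicate block, voom on the recovered reads, plain read totals, and leaving out each library. The counts over the genes of the lists without SAM replicate 3 and with plain read totals were added after seeing the data.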

Additional observations from a re-analysis of the deposited data

How the results depend on the processing

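Of 384 refits of a member's fold change in a comparison (144 without 1 library, 240 with other settings), 23 changed the call (14 and 9), all of them where the log2 difference was no larger than 0.23 in either direction. The falls of Cth under adenine and SAM and of Chac1 under SAM, and the rises of Gsr under both and of Gss under DZ, kept direction and call in every refit; Cth under SAM ranged from −3.23 to −3.03 and Chac1 from −2.58 to −2.42. The Gpx4 value under SAM was 0.08 after quantile normalization. Leaving out 1 library gave 1 to 3 members called under DZ, 4 to 5 under adenine, 5 to 6 under SAM and 4 to 6 between SAM and adenine. Requiring a log2 fold change of at least 0.5 left 1 member called under DZ, 2 under adenine, 3 under SAM and 2 between SAM and adenine. Shares of all genes are not given for these settings or for the replicate block below. These counts therefore cannot be set against the background. With no variance trend the Gpx4 calls under DZ, SAM and between SAM and adenine were lost, as was that under SAM in a model of the 2 groups alone. The cause of these changes was not tested. The labels do not say whether same-numbered dishes were paired. The r of deviations between same-numbered libraries was −0.142 to 0.181, which cannot show whether they were. With the replicate block, 3, 4, 6 and 5 members were called under DZ, adenine, SAM and between SAM and adenine, the numbers found without it. Recovered reads per gene are high, so depth limits no member, and 3 dishes per group limit the precision.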

Other observations

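Nnt, which encodes the mitochondrial transhydrogenase that makes NADPH, varied between dishes of the same group far more than the glutathione genes did. Its levels were 4.03, 4.52 and 4.22 log2 CPM in CTL, 4.52, 1.32 and 2.40 in DZ, 3.19, 4.87 and 3.57 in adenine, and 4.19, 3.99 and 4.72 in SAM. The SD within groups was 0.95, the 13th largest of 12591 genes, where the members had 0.052 to 0.078 and the median gene 0.068. No difference from CTL was called: it was −1.51 for DZ (adjusted p = 0.0348), −0.38 for adenine (adjusted p = 0.572) and 0.04 for SAM (adjusted p = 0.948). The lowest values were those of DZ replicates 2 and 3, which did not stand apart in the comparison of replicates.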
